A study of Zea mays with 15 samples.

Results

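The DNA binding of maize ARF10 (GRMZM2G338259) was set against that of its close relative ARF25 (GRMZM2G116557), peak by peak. The ARF10 list held 33529 peaks and the ARF25 list 38272, together 71801 of the 386300 peaks in the 14 ARF lists of the series. A peak was called shared where the summit of a peak of the other list lay at most 100 bp away, and was otherwise called ARF10-only or ARF25-only. By this rule 26669 ARF10 peaks were shared and 6860 were ARF10-only. Of the ARF25 peaks, 27169 were shared and 11103 were ARF25-only.

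Binding was measured by DAP-seq, in which sheared genomic DNA stripped of chromatin is incubated with a purified transcription factor and the retained fragments are sequenced. All libraries used genomic DNA of the maize inbred B73 from young ears, and each of the 14 ARFs was a GST fusion purified from E. coli. The 1 control library used GST-HALO made in a wheat germ system, so the control was not expressed in the same host as ARF10 and ARF25. Each ARF had 1 library, and no treatment, genotype or time separated the samples.

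AUXIN RESPONSE FACTORS are transcription factors that couple the hormone auxin to gene expression. They bind DNA as dimers, and can also bind as monomers, through a B3 domain that recognises a short element with a TGTC core. Many interact with Aux/IAA repressors, which are degraded when auxin is present. The study places ARF10, ARF25 and ARF13 together in clade B, whose members are regarded mainly as repressors of transcription. ARF7, ARF14, ARF36 and ARF39 are further clade B members. For clade B, the study cites protein data by which most members may lack the interaction with Aux/IAA repressors. Clade A holds ARF4, ARF34, ARF16, ARF29, ARF18, ARF35 and ARF27 and comprises the ARFs regarded as activators. The binding was to naked DNA in vitro, so it says nothing of chromatin or of the cells in which these proteins occur.

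With 1 library per ARF there was no replicate error, and each difference below is one between lists, not a tested difference between proteins. Intervals in brackets are 95% Wilson intervals of shares, or Newcombe intervals of differences between shares. They cover counting error over peaks only, since PCR copies of fragments were not marked by molecular identifiers and nearby peaks can depend on each other. The study describes read depth only as a range over all samples, so the depth behind either list is not known here, and the number of peaks in a list can move with depth. Signals were not scaled between libraries. Each peak was therefore placed by its signal rank in its own list, from 0 for the weakest peak to 100 for the strongest.

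Most binding sites of ARF10 and ARF25 were shared, and nearly all strong sites of either protein had a peak of some strength in the other list. Of the ARF10 peaks, 79.5% (79.1 to 80.0%) were also in the ARF25 list, and of the ARF25 peaks, 71% (70.5 to 71.4%) were also in the ARF10 list. These shares over all peaks are the background for the subsets below. All of the 1000 strongest ARF10 peaks were in the ARF25 list, and 998 of the 1000 strongest ARF25 peaks were in the ARF10 list. Among the 10000 strongest peaks the shares were 97.8% for ARF10 and 98.9% for ARF25. The strongest sites of the pair were less alike. Of the 1000 strongest ARF10 peaks 68.7% were among the 1000 strongest ARF25 peaks, and 68.6% in the other direction, and for the 10000 strongest of each list the shares were 75.4% and 76.4%. Which list had the higher share depended on how they were cut. When the 33529 strongest peaks of each list were matched with each other, 75.9% of ARF10 and 76.8% of ARF25 peaks were shared. With only peaks whose −log10 q was at least 10, the shares were 86.2% of 14375 ARF10 peaks and 59.99% of 21074 ARF25 peaks.

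The unshared peaks of both lists were weak. Shared ARF10 peaks had a median signal of 50 reads and a median rank of 57.7 (quartiles 30.03 to 79.8), and ARF10-only peaks had 36.0 reads and a rank of 31.1 (17.3 to 45.2). In ARF25 the gap was wider, with 61.5 reads and a rank of 63.5 (41.1 to 82.1) for shared peaks and 31.5 reads and a rank of 22.3 (10.4 to 37.9) for ARF25-only peaks. The median −log10 q was 10.42 against 6.19 in ARF10 and 14.93 against 6.88 in ARF25. No ARF10-only peak exceeded 153 reads, whereas the strongest ARF25-only peak reached 420.

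Sharing rose with rank in different ways in the 2 lists. In ARF25 it rose through all 10 bins of rank, from 28.7% in the weakest bin to 56.8% in the fourth, 81.2% in the sixth and 99.6% in the strongest. In ARF10 it was 72.1% in the weakest bin, fell to 62.4% in the second, and then rose to 66.1% in the fourth, 79.4% in the sixth and 99.9% in the strongest. A weak ARF10 peak was therefore in the ARF25 list far more often than a weak ARF25 peak was in the ARF10 list. The shared ARF10 peaks of the weakest bin also lay more often on the very base of an ARF25 summit (61.1%, 59.1 to 63.0%) than those of the sixth bin (32.9%, 31.1 to 34.7%). In mutually nearest pairs, the ARF25 partners of the weakest ARF10 bin had a median ARF25 rank of 37.9, against 57.96 for those of the sixth bin. The weakest ARF10 bin spanned signals of 19.2 to 28.1 reads with a median −log10 q of 5.56, close to the authors' limit of 5. What sets this bin apart was not tested.

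**Figure D1:**
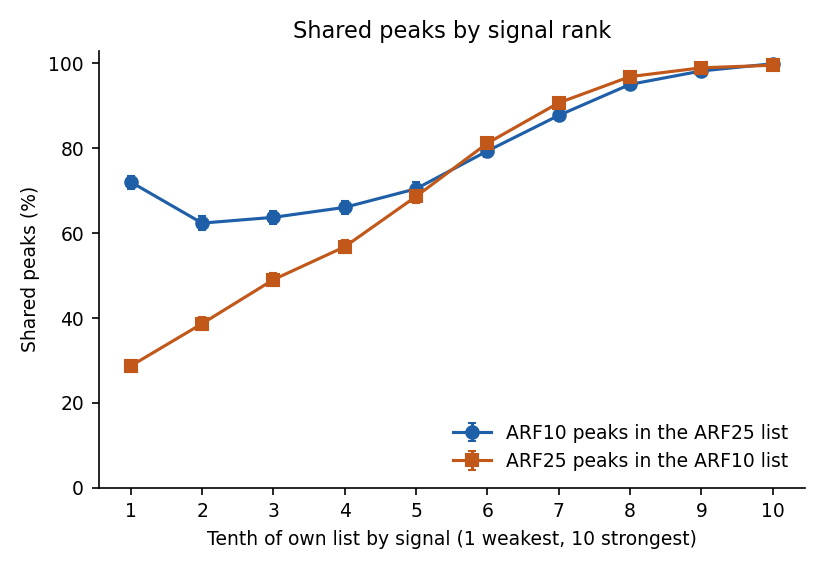
Share of ARF10 peaks in the ARF25 list (circles) and of ARF25 peaks in the ARF10 list (squares), in 10 bins of signal rank within each list, with 95% Wilson intervals. ARF25 rises from 28.7% to 99.6%, and ARF10 falls from 72.1% in the weakest bin to 62.4% in the second before rising to 99.9%.

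Unshared peaks were seldom near misses. Of the ARF10-only peaks, 654 (9.53%) had an ARF25 summit within 1 kb and 2709 (39.5%) within 10 kb, and their median distance to the nearest ARF25 summit was 15.1 kb. Of the ARF25-only peaks, 608 (5.48%) had an ARF10 summit within 1 kb and 3160 (28.5%) within 10 kb, with a median distance of 21.1 kb. At the limit itself, 111 ARF10 peaks lay 91 to 100 bp from an ARF25 summit and had a median rank of 29.7, and 62 lay up to 10 bp past the limit with a median rank of 31.6. In ARF25 there were 171 such peaks just inside (rank 20.0) and 63 just outside (rank 23.5).

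Where the lists shared a site, most summits lay within 5 bp of each other. Of the shared ARF10 peaks, 12528 (47.0%, 46.4 to 47.6%) lay on exactly the base of an ARF25 summit, and 57.2% lay within 5 bp of one. A further 22.7% were 6 to 20 bp away, 17.5% were 21 to 60 bp away and 2.58% were 61 to 100 bp away. The median ARF10 rank fell over these bands from 64.2 to 58.4, 47.1 and 35.0. Set on this smooth decline were single distances that held more peaks than their neighbours. The most frequent distance after 0 was 11 bp with 858 peaks (3.22%). A distance of 41 bp held 475 peaks (1.78%), 29 bp held 318 and 51 bp held 237. At 41 bp the ARF25 summit had the higher coordinate in 289 cases and the lower in 186. The peak caller uses enriched k-mers to place each summit, and its part in these distances was not tested.

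**Figure D2:**
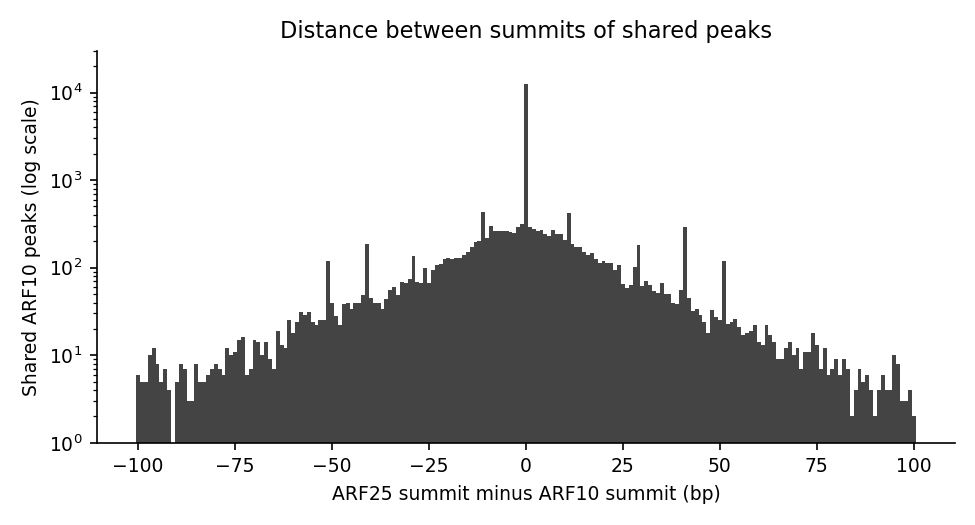
Number of shared ARF10 peaks (log scale) by the signed distance in bp from their summit to the nearest ARF25 summit. The 12528 peaks at 0 stand far above the rest, and isolated bars stand out at 11 bp (858 peaks over both sides), 29 bp (318), 41 bp (475) and 51 bp (237).

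The signals at shared sites were similar in order. Over the 26365 pairs of mutually nearest summits, Spearman's rho between ARF10 and ARF25 signal was 0.72. It was 0.82 over the 12528 pairs on the same base and 0.61 over the 13837 others. This is a correlation across peaks of 1 library each, and peaks are not independent replicates. Of the 3354 pairs in the strongest ARF10 bin, 2802 (83.5%) were also in the strongest ARF25 bin. The rank of ARF10 minus that of ARF25 had a median of -2.92 and quartiles of -18.7 and 5.77. ARF10 ranked at least 25 higher at 2103 pairs (7.98%), and ARF25 ranked at least 25 higher at 4985 (18.9%). The size of this imbalance depended on the lists in which the ranks were taken, and ARF25 had more weak unshared peaks below the shared ones. With equal list sizes the shares were 11.6% and 15.0%. With ranks taken among the shared pairs alone they were 12.1% and 12.1%. That ranking gives both proteins the same mean rank, so it cannot show whether the pairs leaned to either protein.

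**Figure D3:**
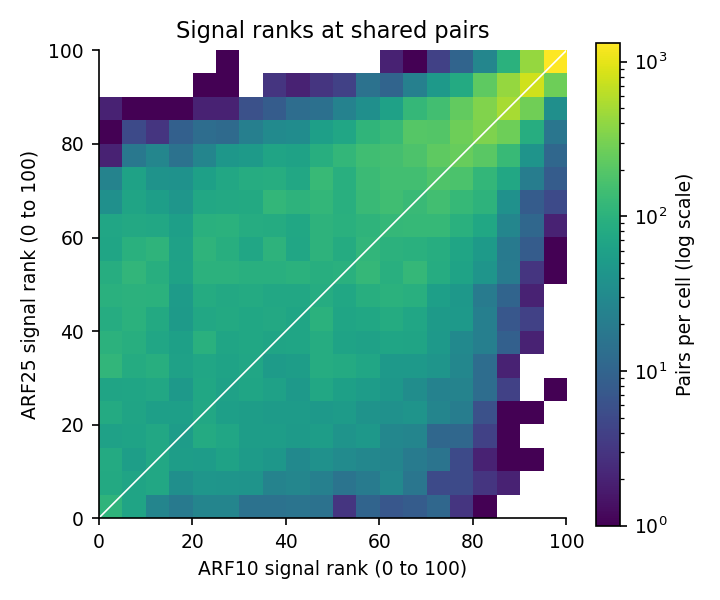
Signal rank in ARF10 (horizontal, 0 to 100) and ARF25 (vertical, 0 to 100) at 26365 pairs of mutually nearest summits, with colour for the number of pairs per cell on a log scale and a white line at equal ranks. The pairs crowd along the line at high ranks and spread widely at low ranks (rho 0.72).

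The strongest shared sites were taken as the 5 pairs with the highest mean of the ARF10 and ARF25 ranks. The highest mean rank was at chromosome 1, where the ARF10 summit at 203883027 had 368.8 reads and the ARF25 summit at 203883019 had 728.5 reads. The next was at chromosome 6, with 396.1 reads for ARF10 at 154663720 and 546 reads for ARF25 at 154663731. Both sites were present in all of the other 12 lists. The next sites were at chromosome 7 (summit 128907698), chromosome 1 (52111664) and chromosome 5 (164544808). At these 3 the ARF10 and ARF25 summits lay on the same base. They were in 9, 7 and 8 of the other 12 lists, with ARF4, ARF34, ARF7, ARF13, ARF14, ARF36 and ARF39 among them at each.

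At some shared sites one protein ranked far above the other. The pair most in favour of ARF10 was at chromosome 4, with an ARF10 summit at 127339957 of 145 reads (rank 93.2) and an ARF25 summit at 127339986 of 27.4 reads (rank 11.6). The pair most in favour of ARF25 was at chromosome 5, with an ARF25 summit at 176205448 of 129 reads (rank 86.3) and an ARF10 summit at 176205473 of 24.8 reads (rank 3.405). ARF13 was present at all 5 of the pairs most in favour of ARF10 and at all 5 of those most in favour of ARF25. Over all shared ARF10 peaks ARF13 was present at 63.2%. ARF4 was present at 37.4% (35.3 to 39.5%) of the 2103 pairs where ARF10 ranked at least 25 higher, and at 10.2% (9.36 to 11.04%) of the 4985 where ARF25 did. At the 19277 pairs with ranks less than 25 apart ARF4 was present at 26.4%, between these values. ARF34 was at 46.5% of the pairs where ARF10 ranked higher, 40.4% of the even ones and 25.9% of those where ARF25 ranked higher, and ARF16 at 36.1%, 28.5% and 14.5%. ARF7, ARF13, ARF14, ARF36 and ARF39 were each less frequent at both kinds of uneven pairs than at even ones. Pairs at least 25 ranks apart cannot lie in the strongest 20% of both lists. In the strongest 20% of the ARF10 list, ARF13 was at 96.5% of the shared peaks. The pairs were not matched by rank, so the part of rank in the shares of any list was not tested. ARF36 was at 38.7% where ARF10 ranked higher, 60.3% of the even pairs and 37.4% where ARF25 ranked higher. ARF13 was at 44.1% (42.0 to 46.3%) where ARF10 ranked higher, 66.2% of the even pairs and 58.3% (56.9 to 59.6%) where ARF25 ranked higher, and ARF39 at 11.2%, 37.4% and 21.5%.

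At the limit of 100 bp, peaks that lay close together in 1 list were more frequent among shared than among unshared peaks. Under this rule 1 peak of the other list can make both of 2 close peaks shared. A close peak was one with another summit of its own list at most 200 bp away. Such peaks made up 4.21% of all ARF10 peaks, with 4.51% (4.27 to 4.76%) of the shared and 3.08% (2.69 to 3.51%) of the ARF10-only peaks, a difference of 1.43 points (0.933 to 1.89). In ARF25 they made up 6.33% of all peaks, with 7.97% (7.65 to 8.30%) of the shared and 2.33% (2.07 to 2.63%) of the ARF25-only peaks, a difference of 5.64 points (5.20 to 6.06). The direction rested on the summit distance of the sharing rule. With summits at most 20 bp apart the differences became -2.71 points in ARF10 and -2.42 points in ARF25.

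At most close pairs of ARF25 peaks the ARF10 list had a single peak. ARF10 had 711 pairs of neighbouring summits at most 200 bp apart and ARF25 had 1222. Both members were shared in 534 ARF10 pairs (75.1%) and 1034 ARF25 pairs (84.6%). In 801 of the ARF25 pairs (65.5%), but 294 of the ARF10 pairs (41.4%), both members had the same single peak of the other list as nearest partner. A few spacings recurred within ARF25 pairs, with 126 pairs (10.3%) at 29 bp, 97 (7.94%) at 41 bp, 76 (6.22%) at 51 bp and 44 (3.60%) at 96 bp. Together these 4 spacings held 343 of the 1222 pairs (28.1%), and the rest were spread over other values. In ARF10 the spacings were more even, and 51 bp, among the most frequent, held 26 pairs (3.66%). The 29, 41 and 51 bp distances between ARF10 and ARF25 summits were thus also spacings within ARF25 pairs.

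The ARF25 pairs at 29 bp were strong sites, with median ranks of 88.2 and 80.9 at the members with the lower and the higher coordinate. A single ARF10 peak lay at 115 of these 126 pairs and more than 1 ARF10 peak at 11. The single ARF10 peak sat on the base of an ARF25 summit in 107 of the 115 cases, and in 78 on that of the stronger ARF25 member. At 41 bp the ARF25 pairs were weaker, with median ranks of 53.4 and 38.7. There 92 of 97 pairs had a single ARF10 peak, which sat on an ARF25 summit in 87 cases but on the stronger member in only 43. At 51 bp, 64 of 76 pairs had a single ARF10 peak and 58 of these sat on an ARF25 summit, 40 of them on the stronger member. Each of these 3 spacings occurred on all 10 chromosomes.

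The other 12 lists separated the 2 kinds of unshared peaks. These lists held from 7520 peaks (ARF18) to 74603 (ARF34), and shares of different lists were not adjusted for list size. In all, 16.7% of ARF10 peaks and 23.6% of ARF25 peaks were in none of the other 12 lists. This held for 12.2% (11.8 to 12.6%) of shared ARF10 peaks and 34.2% (33.1 to 35.4%) of ARF10-only peaks, a difference of -22.1 points (-23.3 to -20.9). In ARF25 it held for 12.01% (11.6 to 12.4%) of shared and 51.8% (50.9 to 52.8%) of ARF25-only peaks, a difference of -39.8 points (-40.8 to -38.8). Unshared peaks were also weaker, and within 5 bins of signal rank the differences were smaller. They ranged from -18.8 to -8.64 points in ARF10, with a mean of -13.8 weighted by the number of ARF10-only peaks in each bin. In ARF25 they ranged from -33.5 to -8.78 points, with a mean of -27.8 weighted likewise. Shared peaks were in a median of 4 other lists, ARF10-only peaks in 1 and ARF25-only peaks in 0. The ARF25-only peaks were thus mostly peaks of the ARF25 library alone, and ARF10-only peaks mostly had a peak of a further ARF.

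That further ARF was often one of clade A. ARF4 was present at 25.8% of all ARF10 peaks, at 24.4% of shared and 31.1% of ARF10-only peaks, a difference of -6.72 points (-7.93 to -5.51). ARF16 was at 26.6% and 31.0% of these peaks. ARF34, at 38.6% of all ARF10 peaks, was at 38.3% and 39.8%. When ARF10 peaks were compared within 5 bins of rank, ARF4, ARF16 and ARF34 were more frequent at ARF10-only than at shared peaks in all 5 bins. In the weakest of the 5 bins ARF4 was at 23.1% (21.4 to 24.96%) of ARF10-only and 9.93% (9.07 to 10.9%) of shared peaks, and in the middle bin at 36.1% (33.8 to 38.4%) and 24.8% (23.6 to 26.0%). ARF18, ARF27, ARF29 and ARF35 had no such order across the bins. Of these, ARF18, ARF29 and ARF35 were the smallest clade A lists, with 7520, 14157 and 9198 peaks.

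Clade B ARFs were mostly missing at ARF10-only peaks. ARF13 was present at 51.8% of all ARF10 peaks but at 63.2% of shared and 7.73% of ARF10-only peaks. ARF14 was at 48.3% of all ARF10 peaks, 56.8% of shared and 15.5% of ARF10-only peaks. ARF36 (54.4% and 14.7%), ARF7 (45.9% and 17.3%) and ARF39 (32.4% and 2.27%) had the same order, and for all 5 it held in each of the 5 rank bins. A peak of at least 1 clade A ARF without any of ARF7, ARF13, ARF14, ARF36 and ARF39 was present at 12.6% of all ARF10 peaks. The share was 7.41% (7.10 to 7.73%) at shared and 32.8% (31.7 to 33.9%) at ARF10-only peaks.

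At ARF25-only peaks the clade A lists were less frequent than at shared peaks. ARF4 was at 19.3% of all ARF25 peaks, at 24.4% of shared and 6.82% of ARF25-only peaks, and ARF34 at 31.8% of all, 38.3% of shared and 15.9% of ARF25-only peaks. A clade A peak without any of the 5 clade B ARFs was at 7.73% of all ARF25 peaks, 7.20% of shared and 9.03% of ARF25-only peaks. ARF13, at 47.7% of all ARF25 peaks, was at 63.7% of shared and 8.58% of ARF25-only peaks. ARF14, at 48.6% of all ARF25 peaks, was at 57.2% and 27.5%, the highest share of any list at ARF25-only peaks. No list was more frequent at ARF25-only than at shared peaks in any of the 5 rank bins. Outside the 5755 ARF25-only peaks in no other list, the most frequent sets were ARF14 alone (542 peaks), ARF13 alone (535) and ARF7 with ARF14 and ARF36 (488). Among ARF10-only peaks, 2349 were in no other list, and the most frequent set was ARF4 with ARF16 and ARF34 (260).

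**Figure D4:**
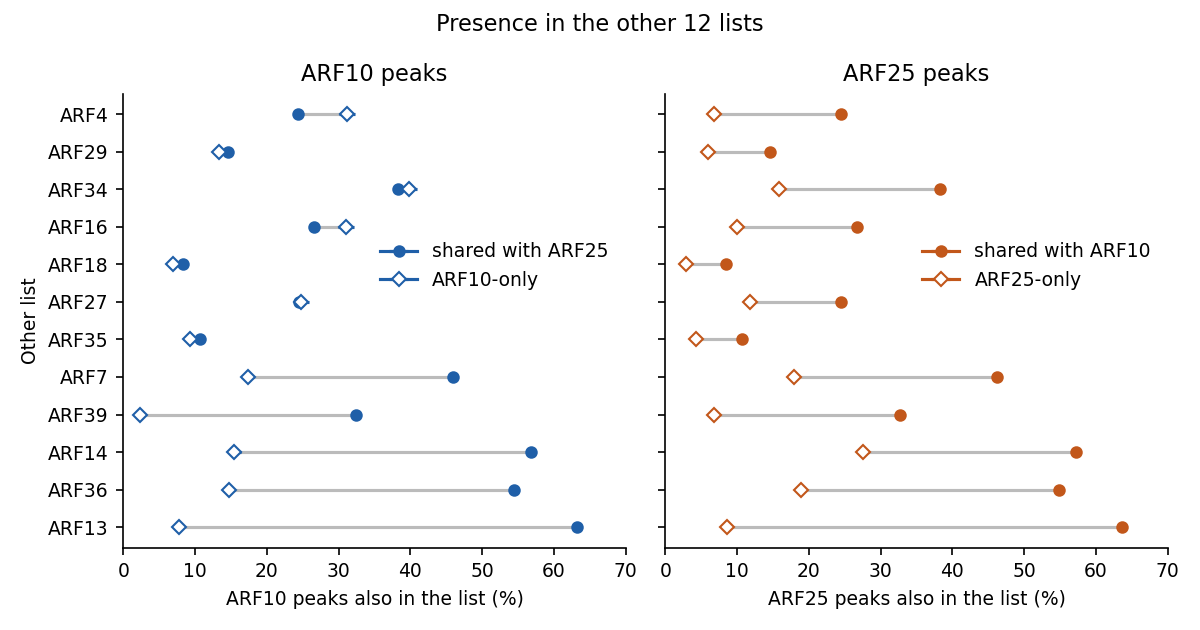
Share of ARF10 peaks (left) and ARF25 peaks (right) also present in each of the other 12 lists, for shared peaks (filled circles) and unshared peaks (open diamonds), with 95% Wilson intervals mostly smaller than the symbols. At ARF10 peaks ARF4 is more frequent at unshared (31.1%) than shared peaks (24.4%) and ARF13 far less (7.73% against 63.2%), while at ARF25 peaks every list is less frequent at unshared peaks.

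The few strong unshared peaks drew the contrast more sharply. Of the ARF10-only peaks, 61 were in the strongest 20% of the ARF10 list. ARF4 was at 50 of these (82.0%, 70.5 to 89.6%), against 33.5% of the 6643 equally ranked shared peaks. ARF34 was at 45 (73.8%, 61.6 to 83.2%, against 48.4%) and ARF16 at 39 (63.9%, 51.4 to 74.8%, against 33.5%). ARF13 was at 11 of the 61 (18.0%, 10.4 to 29.5%), against 96.5% of the shared peaks, and ARF14 at 10 (16.4%) against 89.8%. Of the clade B ARFs, ARF36 was the most frequent with 24 of 61 (39.3%, 28.1 to 51.9%).

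The 5 strongest ARF10-only peaks were at chromosome 2 (summit 177976117, 153 reads), chromosome 9 (36336550, 130 reads), chromosome 7 (25051856, 121 reads), chromosome 9 (93555330, 118 reads) and chromosome 8 (22461197, 117.2 reads). All but the one at chromosome 9, 93555330, were present in exactly the lists of ARF4, ARF16, ARF34 and ARF36. The nearest ARF25 summit was 2448 to 6262 bp from these 4 peaks. That one was present in the lists of all 7 clade A ARFs and in none of clade B, and its nearest ARF25 summit was 102 bp away, just past the limit.

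The strong ARF25-only peaks mostly held clade B ARFs other than ARF13. That they lacked ARF10 follows from the sharing rule. There were 55 in the strongest 20% of the ARF25 list. ARF14 was at 49 of these (89.1%, 78.2 to 94.9%), ARF36 at 45 (81.8%, 69.7 to 89.8%), ARF7 at 41 (74.5%, 61.7 to 84.2%) and ARF39 at 39 (70.9%, 57.9 to 81.2%). At the 7616 shared peaks in the same 20% the shares were 91.5%, 92.2%, 81.1% and 73.8%. Here too the classes were not matched by rank within the 20%. Of the ARF25 peaks 99.0% were shared in the ninth of the 10 rank bins and 99.6% in the strongest. ARF13 was at 8 of the 55 (14.5%, 7.56 to 26.2%), against 97.5% of the shared peaks. ARF4 was at 3 of the 55 (5.45%) against 30.6%. ARF7, ARF14, ARF36 and ARF39, and no further list, were present at 27 of the 55 (49.1%, 36.4 to 61.9%).

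Of the 5 strongest ARF25-only peaks, 4 carried exactly this set. They were at chromosome 2 (summit 215811766, 420 reads; 224089028, 252.6 reads; 214007759, 223.2 reads) and at chromosome 5 (201813142, 218.1 reads). The nearest ARF10 summit was 19765 to 115168 bp away. The other peak, at chromosome 2 (33953905, 313 reads), was in 11 of the other 12 lists, ARF13 included, with ARF35 the one without it, and had its nearest ARF10 summit 22458 bp away.

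Along the chromosomes the classes differed little. The 10% of each chromosome next to either end, together its outer 20%, held 23.9% of all ARF10 peaks, with 23.5% of the shared and 25.5% of the ARF10-only peaks, a difference of -1.97 points (-3.13 to -0.827). With only peaks whose −log10 q was at least 10, this difference was -1.26 points and its interval included 0. They held 24% of all ARF25 peaks, with 23.4% of the shared and 25.6% of the ARF25-only peaks, a difference of -2.13 points (-3.09 to -1.18). The ARF25 difference was -1.06 points without the segment of chromosome 2 described next. The share of ARF10 peaks that were shared ranged from 78.7% on chromosome 7 to 80.7% on chromosome 8. For ARF25 it ranged from 68.6% on chromosome 2 to 72.6% on chromosome 10.

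A segment of chromosome 2 stood apart. The genome was divided into windows of 2 Mb, and 976 windows held at least 20 ARF25 peaks, with a median of 71.7% of them shared. In 11 windows under 50% were shared, and 7 of these lay side by side at chromosome 2, 212000001 to 226000000. Of the other 4, 2 adjoined each other further along chromosome 2, at 234000001 to 238000000 (46.9% and 48.1%), 1 was on chromosome 1 (44.0%) and 1 on chromosome 5 (46.7%). The 6 windows with the lowest shares were all in the segment, the lowest being 214000001 to 216000000 with 12 of 69 ARF25 peaks shared (17.4%). By the same rule 927 windows were examined for ARF10 peaks, with a median of 80% of them shared. Of these windows 0 fell under 50%, the lowest being 52.5%, but that limit lies further below the median for ARF10 than for ARF25. In 2 of the 7 windows of the segment, the lowest for ARF25 among them, there were fewer than 20 ARF10 peaks, so these were not examined. Over the whole segment 112 of 157 ARF10 peaks (71.3%) were shared, against 79.6% elsewhere. The segment was found by its low share of shared ARF25 peaks, so that share is a description and was not tested.

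In the segment 115 of 348 ARF25 peaks (33.0%) were shared, against 71.3% elsewhere. It held 0.468% of the ARF10 list and 0.909% of the ARF25 list. The other lists fell into the same 2 levels. ARF7 (0.896%), ARF14 (0.891%), ARF36 (0.998%) and ARF39 (1.11%) were near ARF25. ARF13 (0.371%), ARF18 (0.426%) and the other 6 clade A lists (0.544 to 0.590%) were near ARF10. Of the ARF39 peaks in the segment 39.8% were in the ARF10 list, against 86.0% elsewhere. The shares were 31.9% and 71.6% for ARF36, 29.2% and 59.1% for ARF14, and 24.3% and 47.7% for ARF7. ARF13 peaks were in the ARF10 list at 95.6% in the segment and 93.2% elsewhere. The peaks of these lists overlap with those of ARF25, so they are not separate evidence for the segment.

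The segment held 233 ARF25-only peaks, with a median rank of 30.4, against 22.1 for the 10870 elsewhere. Of these 233, 45.1% were in the ARF14 list, 43.8% in ARF36, 32.6% in ARF7, 24.9% in ARF39 and 1.29% in ARF13. Elsewhere the shares were 27.2%, 18.4%, 17.6%, 6.42% and 8.74%. Of the 55 strong ARF25-only peaks, 18 were in the segment, which held 48 of all 7671 ARF25 peaks of the strongest 20%. On chromosome 2 as a whole there were 27 of the 55 (49.1%, against 11.6% of shared peaks in the same 20%). Of the 27 strong peaks with exactly ARF7, ARF14, ARF36 and ARF39, 14 were in the segment and 17 on chromosome 2. The segment was chosen for its low share of shared ARF25 peaks. An excess of ARF25-only peaks there, and on chromosome 2, follows in part from that choice. No ARF10-only peak of the strongest 20% was in the segment (0 of 61). The segment held only 0.468% of all ARF10 peaks, so few or none would lie there at that share. The pairs shared in the segment had median ranks of 61.3 in ARF10 and 65.2 in ARF25, close to the 58.2 and 63.8 of pairs elsewhere. The cause was not tested, and with 1 library per ARF the protein and its library cannot be told apart.

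**Figure D5:**
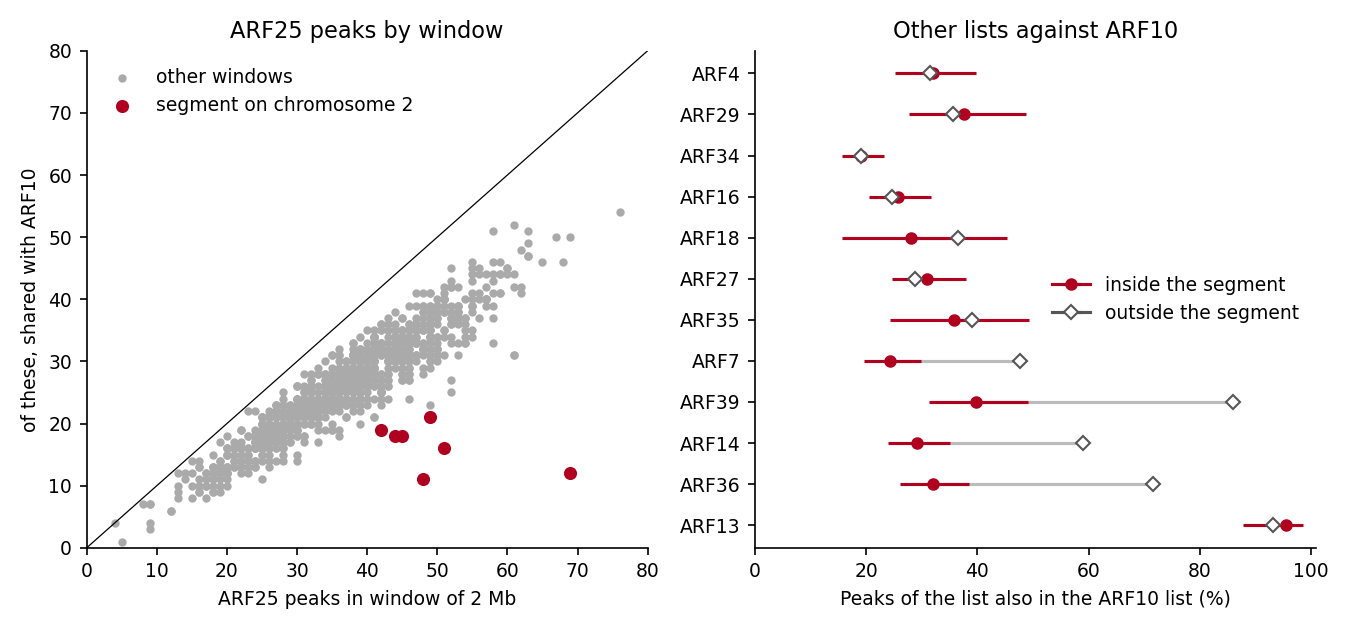
Left, number of ARF25 peaks in each window of 2 Mb and how many were shared with ARF10, with the 7 windows of the chromosome 2 segment in red and a line where all would be shared. Right, share of peaks of each other list also in the ARF10 list, inside (filled, red) and outside (open) the segment, with 95% Wilson intervals. ARF7, ARF14, ARF36 and ARF39 are lower inside (24.3 to 39.8%) than outside (47.7 to 86.0%), and ARF13 is not (95.6% and 93.2%).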

How the data were processed

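Per the labels and the study's methods, reads were trimmed (trimmomatic), aligned to B73 RefGen version 3 (Bowtie2 2.2.8) and filtered for mapping quality over 30 (SAMtools), which thins out repeats. The authors called each ARF's peaks with GEM 2.5, which places summits with enriched k-mers, against the GST-HALO library at a false discovery limit of 1e-05. Whether regions with peaks in every library were removed is not stated in the labels. The signal of the deposited lists is the depth of reads GEM gives a peak, not scaled between libraries. Its p-value and q-value columns were deposited as −log10, with a ceiling of 999. The deposited display score was not used.

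Summits were the centres of the 201 bp peaks, and coordinates are 1-based. A distance of at most 100 bp between summits equals a 50% reciprocal overlap, and bedtools 2.31.1 gave counts that differed by 0. Nearest summits, ranks and intervals were computed with numpy 2.4.6, pandas 2.3.3 and scipy 1.17.1 in Python 3.11.15, and figures with matplotlib 3.10.9. The arithmetic was tested on simulated data. Rank bins were of equal width within a list. Chromosome spans ran to the last peak end in any of the 14 lists. The sites named were the 5 shared pairs of highest mean rank, the 5 unshared peaks of highest signal in each list, and, among the 5 pairs most in favour of each protein, the first. The members, lists and tests were chosen with earlier results of these data known. No genome of this build was used here, so sequences and genes at the peaks were not analysed here. The labels name no clades, and the clade names follow the study. No average by clade was made.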

Additional observations from a re-analysis of the deposited data

How the results depend on the processing

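The results were recomputed in 74 alternatives over 11 settings, and 40 stayed close to the reported values, 32 moved and 2 reversed, both of them differences in close peaks. The order of the ARF10 and ARF25 shares also turned with equal list sizes. With summits at most 20 bp apart, 63.6% of ARF10 and 55.8% of ARF25 peaks were shared, and the differences between shared and unshared peaks were 39.6 in median ARF25 rank, -2.71 (ARF10) and -2.42 points (ARF25) in close peaks, both reversed, and -30.9 and -38.3 points in peaks found in no other list, with a rho of 0.76. At most 200 bp apart, 80.2% and 71.5% were shared, and the close peak differences were 3.83 and 6.98 points. With a −log10 q of at least 10 in all lists, 86.2% and 59.99% were shared, the rank differences were 28.9 and 44.1, the absence from other lists differed by -26.9 and -48.0 points, the ARF25 position by -3.83 points, 56.6% of shared summits coincided and rho was 0.75. With equal list sizes the shares were 75.9% and 76.8%, the ARF10 rank difference was 31.7, and the ARF25 differences were 4.77 points in close peaks and -35.9 points in absence from other lists. With mutually nearest pairs only, 78.6% and 68.9% were shared. With close peaks at most 100 bp apart, the ARF10 difference was 2.34 points. Without the chromosome 2 segment, an alternative chosen after seeing the data, the ARF25 position difference was -1.06 points. Ranks taken with equal list sizes or among shared pairs alone, also chosen after seeing the data, moved the pairs at least 25 ranks higher in ARF10 from 7.98% to 11.6% and 12.1%, and those in ARF25 from 18.9% to 15.0% and 12.1%.

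No paired analysis was possible because each ARF had 1 library and the labels give no shared replicate numbers. For the same reason leaving out a library was not applicable, and the spread that repeat libraries would show is not known here. A number of mapped reads kept was recorded for ARF34 and ARF27 alone, so the depth of the ARF10, ARF25 and remaining lists was not known. A peak missing from a list is a peak not called at the depth of that list.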
